A study of Sus scrofa with 12 samples.

Results

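RGS6, GNB4 and KCTD12 encode proteins that act on or make up the beta-gamma arm of heterotrimeric G protein signalling. They are 3 of the 516 genes held in the table of CPM values (read counts scaled to library size) analysed here, and they were found by their gene symbols. The genes were picked with their difference between pressure-overloaded and control pig hearts already known, so that difference is described below and not tested. The libraries, made from polyadenylated RNA of pig heart with a strand-specific kit, number 6 from left ventricular pressure overload and 6 from referent controls. Pressure overload was produced by stepwise inflation of a cuff around the ascending aorta and was studied at 5 weeks, and the controls were pigs of matched age and weight. The series text speaks of 9 pressure-overloaded and 6 control pigs. The labels name no strain, sex or age, give the tissue as heart without a chamber, and give the 12 libraries 12 distinct identifiers without stating that each is a separate pig. The p-values below therefore measure the spread between these libraries, which may be technical in part.

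When a receptor activates a heterotrimeric G protein, the alpha subunit binds GTP and parts from the beta-gamma dimer, and both go on to act on channels and enzymes. In the heart, the best-known target of beta-gamma is the GIRK potassium channel of the sinoatrial node and atria, which opens when the vagus nerve releases acetylcholine and slows the heartbeat. GNB4 encodes a beta subunit. RGS6 belongs to the R7 family of regulators of G protein signalling, which speed GTP hydrolysis by inhibitory alpha subunits and so end the signal, and which are held stable by the atypical beta subunit encoded by GNB5. Mice that lack Rgs6 have an exaggerated heart rate response to vagal stimulation. KCTD12 is an auxiliary subunit of the GABA-B receptor in neurons, where it binds beta-gamma and desensitizes the channel response.

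In the Sscrofa11.1 assembly with the NCBI RefSeq annotation, RGS6 spans chr7:95365212-95930040, or 565 kb, with 11 annotated transcripts. It overlaps 3 annotated long non-coding RNAs. GNB4 lies at chr13:117442594-117513387 with no overlapping annotated gene. KCTD12 lies at chr11:49025134-49033208 and overlaps 1 annotated long non-coding RNA. The sources used here do not say whether the authors' counting used strand, so reads of RGS6 and KCTD12 cannot be told apart from those of any of these RNAs that run antisense to them.

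The effective library size, recovered from the spacing of the CPM values, averaged 25.3 M reads among the 6 controls (SD 4.21 M) and 27.3 M reads among the 6 pressure overload libraries (SD 2.66 M). The table holds 516 of about 15235 genes that the authors tested, or 3.39%, each with an unadjusted p under 0.05 in the authors' deposited table, and values of other genes were not analysed here. Single libraries stood apart over the 512 genes that reached 1 CPM or more in 6 or more libraries. These genes were listed for a group difference and may vary together, so an equal share per library is only a guide. Control replicate 5, whose identifier begins with V where the other 11 begin with P, was the highest control for 41.4% of the genes. For the 138 genes listed as higher in pressure overload it was the lowest control in 36.2%, and control replicate 6 in 31.2%. For the 374 genes listed as lower, control replicate 5 was the highest control in 52.9% and control replicate 6 in 24.1%. Pressure overload replicate 3 was the highest of its group for 47.9% of the genes, and replicate 4 the lowest for 37.9%. Results on the 3 genes are therefore also given without control replicate 5 and pressure overload replicate 3.

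**Figure D1:**
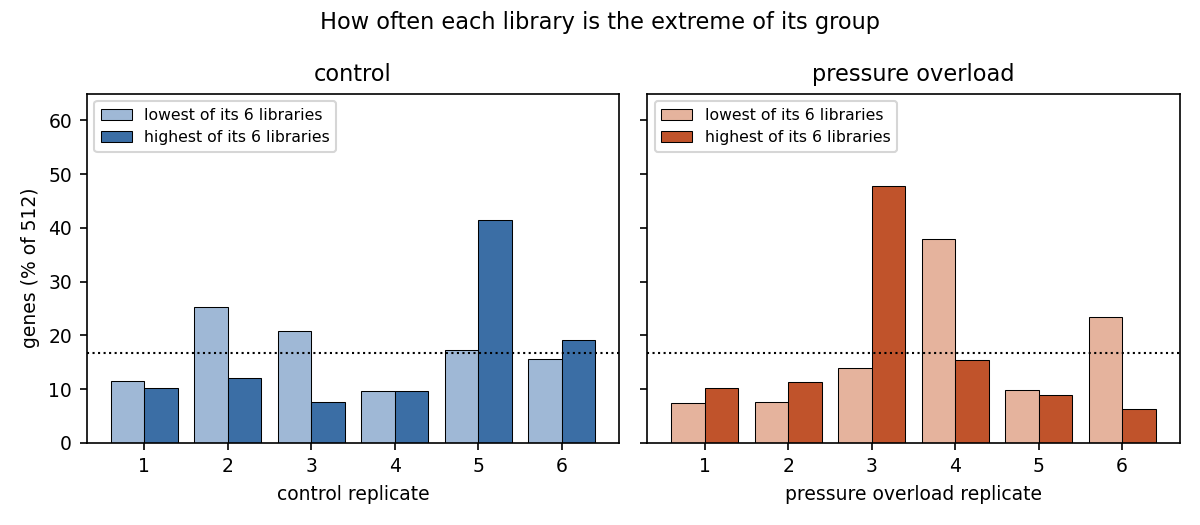
Share of the 512 genes (vertical axis, percent) for which each library (horizontal axis, replicate number) was the lowest or the highest of the 6 libraries of its group; the dotted line marks an equal share. Control replicate 5 was highest for 41.4% and pressure overload replicate 3 for 47.9% of the genes.

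RGS6, the brake on inhibitory G proteins, fell in pressure overload by the authors' adjusted test. Its level in the control libraries was 8.04, 27.7, 3.17, 23.4, 9.47 and 48.9 CPM in replicates 1 to 6. In pressure overload it was 3.04, 4.28, 1.57, 3.33, 1.95 and 1.69 CPM. Controls were spread widely, while all 6 pressure overload libraries were low. The groups overlapped through control replicate 3, which lay below pressure overload replicates 2 and 4, and the other 5 controls lay above every pressure overload library.

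RGS6 averaged 20.1 ± 16.98 CPM over the controls and 2.64 ± 1.08 CPM over the pressure overload libraries (SD, n = 6 each). The ratio of the control mean to the pressure overload mean was 7.61. On the log2(CPM + 1) scale, which understates changes of low genes, the difference was -2.14 ± 0.56 (SE). The authors' deposited table gives a log2 fold change of -2.87, the most negative of the 375 genes listed as lower, with an adjusted p of 0.0367. RGS6 is the only one of the 3 genes past an adjusted p of 0.05 in the authors' deposited table, where 6 of about 15235 tested genes, or 0.0394%, were past it. Reads behind the RGS6 values numbered from 62 to 1233 in controls and from 41 to 116 in pressure overload. Most recovered counts were even, though 7 of the 12 counts of RGS6 were odd. Whether both ends of a read pair were counted is not given, so the number of fragments may be lower.

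RGS6 varied widely among the controls. The standard deviation of its log2(CPM + 1) values was 1.31 in controls, the 3rd largest of 512 genes, against a median of 0.28 over those genes. In pressure overload it was 0.42, ranked 87 of 512, against a median of 0.29. Control replicate 6, with 48.9 CPM, was 15.4 times as high as control replicate 3. Without control replicate 6 the ratio of the control mean to the pressure overload mean was 5.43, and without control replicate 3 it was 8.89.

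The size of the RGS6 difference also varied between the sets of libraries that the labels number S01 to S06 and S10 to S15, each with 3 controls and 3 pressure overload libraries. The log2 difference was -1.43 in the first set and -2.85 in the second. Without both control replicate 5 and pressure overload replicate 3 it was -2.16.

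GNB4 was at 15.5, 18.3, 16.5, 15.4, 9.40 and 13.3 CPM in control replicates 1 to 6. In pressure overload it was at 20.1, 26.2, 22.2, 21.6, 19.1 and 20.3 CPM. The groups did not overlap, since the highest control, replicate 2, lay just under the lowest pressure overload library, replicate 5. Among the 516 listed genes 50, or 9.69%, had groups that did not overlap, all of them listed for a difference in these libraries, so nothing is read from the separation of GNB4.

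GNB4 averaged 14.7 ± 3.07 CPM over the controls and 21.6 ± 2.49 CPM over the pressure overload libraries (SD, n = 6 each). The ratio of the pressure overload mean to the control mean was 1.46. The log2 difference was 0.54 ± 0.14 (SE). In the authors' deposited table GNB4 had a log2 fold change of 0.54, ranked 47 of the 141 genes listed as higher, with an unadjusted p of 0.0107 and an adjusted p of 1. Reads behind GNB4 numbered from 264 to 506 in controls and from 494 to 708 in pressure overload. All 12 of these counts were even, so the number of fragments may be lower. GNB4 was steady in pressure overload, where the standard deviation of its log2 values was 0.15, rank 458 of 512 genes, and 0.31 in controls, rank 217.

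Control replicate 5, the library that was often an extreme among controls, held the lowest GNB4 value of all 12. Without it the log2 difference was 0.43, and without it and pressure overload replicate 3 it was 0.42. The difference was 0.42 in libraries S01 to S06 and 0.66 in libraries S10 to S15.

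KCTD12 rested on 24 to 122 reads per library in controls and 104 to 288 in pressure overload. All 12 of these counts were even, so the number of fragments may be lower. KCTD12 was at 4.09, 3.40, 2.97, 4.04, 0.855 and 2.22 CPM in control replicates 1 to 6. In pressure overload it was at 4.46, 10.6, 5.39, 4.03, 7.09 and 6.17 CPM. Pressure overload replicate 4 lay just below control replicates 1 and 4, and every other pressure overload library lay above every control.

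KCTD12 averaged 2.93 ± 1.23 CPM over the controls and 6.29 ± 2.40 CPM over the pressure overload libraries (SD, n = 6 each). The ratio of the pressure overload mean to the control mean was 2.15. The log2 difference was 0.91 ± 0.29 (SE), and the authors' deposited table gives a log2 fold change of 1.07, ranked 13 of 141 genes listed as higher, with an unadjusted p of 0.0158 and an adjusted p of 1. Pressure overload replicate 2 was the highest library for both KCTD12 and GNB4, and control replicate 5 the lowest for both. The same ratio for KCTD12, pressure overload to control, was 1.85 without pressure overload replicate 2 and 1.88 without control replicate 5. The log2 difference was 0.74 without both control replicate 5 and pressure overload replicate 3, 0.73 in libraries S01 to S06 and 1.09 in libraries S10 to S15.

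**Figure D2:**
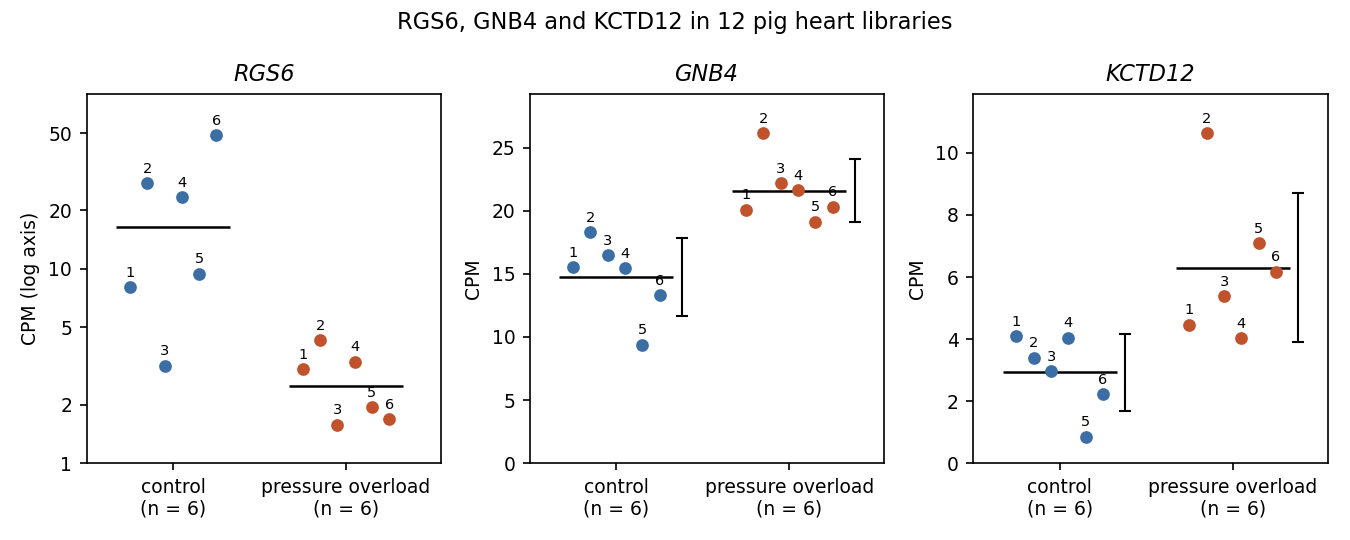
Levels of RGS6 (CPM, log axis), GNB4 and KCTD12 (CPM, linear axes from 0) in each library, with replicate numbers beside the points. Horizontal lines are medians for RGS6, drawn without bars, and means for the other genes, with bars of 1 SD (n = 6 each). Of the 3 genes, only GNB4 had control and pressure overload libraries that did not overlap, as had 9.69% of the 516 listed genes. RGS6 controls ranged from 3.17 to 48.9 CPM.

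In bulk tissue, a change in the number of cells that make a transcript and a change in the transcript per cell cannot be told apart. Of 10 endothelial markers, KDR and PLVAP were listed, both as higher in pressure overload, where 3.09% of 97 markers over all lists and 3.39% of all tested genes were listed. Their summed level ranged from 160 to 239 CPM over the controls and from 205 to 366 CPM under pressure overload. Of 11 atrial cardiomyocyte markers, MYL4, a myosin light chain of atrial and embryonic muscle, was listed, and it ranged from 12.9 to 40.02 CPM over the controls and from 4.76 to 16.97 CPM under pressure overload. None of the listed markers was at 0 in any library. The table held none of the 12 markers of pacemaker and conduction cells, 10 of ventricular cardiomyocytes, 12 of neurons and Schwann cells, 8 of fibroblasts, 9 of smooth muscle and pericytes, 10 of macrophages, 9 of lymphocytes or 6 of adipocytes. The tissue label could not be checked against its defining markers for that reason. The part of these cell types in the differences of RGS6, GNB4 and KCTD12 was not tested.

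The wider pathway was read from 11 lists of G protein and KCTD genes, ordered by role. Of 174 annotated members 6 were listed, or 3.45%, against 3.39% of all tested genes. Of the 6, 3 were lower and 3 higher. The 516 listed genes were 375 lower and 141 higher, or 2.46% and 0.926% of all tested genes. Without RGS6, GNB4 and KCTD12, which had been picked from the table, 3 of 171 members, or 1.75%, were listed, 1 higher and 2 lower. The background counts genes tested and the lists count genes annotated, so no excess or lack of pathway genes is read from these shares.

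Among the subunits, GNB4 was the only listed gene of 5 beta subunits, 11 annotated gamma subunits and 16 alpha subunits. The beta subunit gene GNB5, whose product partners RGS6, was not in the table. RGS6 was the only listed gene of 25 RGS proteins and anchors of the R7 family. None of the 4 GIRK channel genes, 28 receptor genes, 7 receptor kinases and arrestins, 19 genes of the cAMP pathway or 16 genes of G protein assembly and exchange was listed. Receptors outside these lists, such as F2R and TBXA2R, were in the table and are given below. A gene that is not in the table may still have differed.

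Of 20 effectors regulated by beta-gamma, ADCY6 was listed. It encodes a main adenylyl cyclase of cardiac muscle cells, which makes cAMP. Its level was 647, 649, 604, 615, 725 and 980 CPM in control replicates 1 to 6 and 462, 511, 462, 256, 611 and 514 CPM in pressure overload. Controls lay above pressure overload except that pressure overload replicate 5 was just above control replicate 3. The log2 difference was -0.61 ± 0.21 (SE), and the authors' deposited table gives an adjusted p of 1.

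Of 23 KCTD family genes, KCTD12, KCTD10 and KCTD7 were listed. KCTD12 had been picked from the table, and 2 of the other 22, or 9.09%, were listed against 3.39% of all tested genes. KCTD10, a substrate adaptor of cullin-3 ubiquitin ligases, averaged 36.8 ± 6.21 CPM over the controls and 46.2 ± 2.495 CPM under pressure overload (SD, n = 6 each), with a log2 difference of 0.33 ± 0.11 (SE). KCTD7, which is linked to a progressive myoclonic epilepsy in humans, averaged 11.08 ± 2.09 CPM over the controls and 7.43 ± 1.70 CPM under pressure overload (SD, n = 6 each), with a log2 difference of -0.53 ± 0.16 (SE). Both had an adjusted p of 1 in the authors' deposited table. Median-of-ratios rescaling, which shifts most genes of the table upwards, gave log2 differences of 0.65 for KCTD10, -0.24 for KCTD7 and -0.28 for ADCY6. The KCTD7 difference was -0.14 in libraries S01 to S06 and -0.92 in libraries S10 to S15. The KCTD10 value is uncertain, because the annotated gene overlaps UBE3B and MYO1H.

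**Figure D3:**
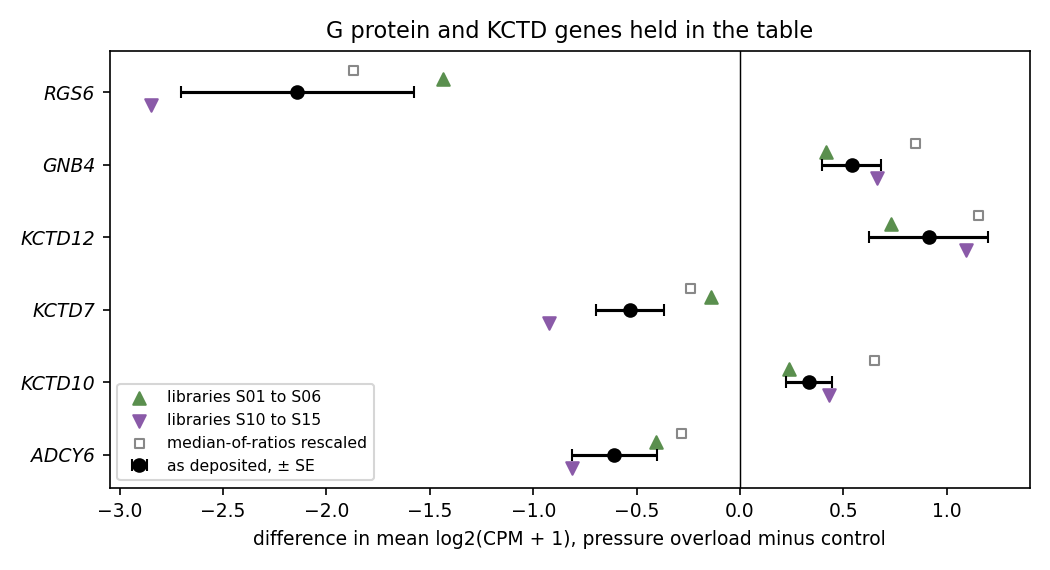
Difference in mean log2(CPM + 1), pressure overload minus control, for the 6 listed genes of the pathway lists as deposited with SE (black), in each numbered set of libraries (triangles) and after median-of-ratios rescaling (squares). Direction was the same in both sets of libraries for the 6 genes, and RGS6 had a difference of -1.43 in S01 to S06 and -2.85 in S10 to S15.

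Whether the genes varied together was examined within each group, so that the difference used to pick them did not enter. Correlations of log2(CPM + 1) were computed for 7 pairs in 2 groups, with exact two-sided permutation tests and Benjamini-Hochberg adjustment over the 14. None passed an adjusted p of 0.05. The smallest was that of GNB4 and KCTD12 in controls, with a Pearson r of 0.90 (exact permutation p = 0.0306, adjusted p = 0.428, n = 6). Spearman's rho for that pair was 0.54 (exact permutation p = 0.297, adjusted p = 0.832). Without control replicates 2 and 5, the libraries farthest from the median of GNB4, r was 0.63 (exact permutation p = 0.375, n = 4). So few libraries, over a narrower range of GNB4, cannot decide whether the relation held. In pressure overload r was 0.56 (exact permutation p = 0.254, adjusted p = 0.517, n = 6), rho was 0.14 (exact permutation p = 0.803, adjusted p = 0.919), and r was -0.15 without replicates 2 and 5 (n = 4).

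In controls the r of RGS6 with the other members was near 0. Its r with GNB4 was 0.03 (exact permutation p = 0.96, adjusted p = 0.971, n = 6) and with KCTD12 0.05 (exact permutation p = 0.904, adjusted p = 0.971, n = 6). Both values of rho were -0.20 (exact permutation p = 0.714, adjusted p = 0.909). Without control replicates 3 and 6, r was 0.61 with GNB4 and 0.40 with KCTD12 (n = 4). In pressure overload r was 0.60 with GNB4 (exact permutation p = 0.201, adjusted p = 0.517, n = 6) and 0.23 with KCTD12 (exact permutation p = 0.681, adjusted p = 0.866, n = 6). The values of rho were 0.26 (exact permutation p = 0.658, adjusted p = 0.909) and 0.09 (exact permutation p = 0.919, adjusted p = 0.919). Without replicates 2 and 3, r was 0.62 (exact permutation p = 0.542, n = 4) and -0.93 (exact permutation p = 0.25, n = 4).

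RGS6 was also set beside 4 genes of other kinds that were lower in pressure overload. With ETV1, an ETS-family transcription factor that in mice shapes the fast conduction of atria and Purkinje fibres, r was 0.77 in controls (exact permutation p = 0.0847, adjusted p = 0.517, n = 6) and 0.60 in pressure overload (exact permutation p = 0.169, adjusted p = 0.517, n = 6). The values of rho for ETV1 were 0.77 (exact permutation p = 0.103, adjusted p = 0.832) and 0.43 (exact permutation p = 0.419, adjusted p = 0.839). Without the 2 libraries farthest from the median of RGS6, r with ETV1 was 0.49 in controls and 0.68 in pressure overload (n = 4 each).

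With MYL4, r was 0.71 in controls (exact permutation p = 0.14, adjusted p = 0.517, n = 6) and 0.35 in pressure overload (exact permutation p = 0.479, adjusted p = 0.745, n = 6). Its rho was 0.54 (exact permutation p = 0.297, adjusted p = 0.832) and 0.60 (exact permutation p = 0.242, adjusted p = 0.832), and r without the same libraries was 0.55 and 0.60. With SCN3B, a sodium channel beta subunit, r was 0.55 in controls (exact permutation p = 0.258, adjusted p = 0.517, n = 6) and 0.44 in pressure overload (exact permutation p = 0.439, adjusted p = 0.745, n = 6). Its rho was 0.60 (exact permutation p = 0.242, adjusted p = 0.832) and 0.31 (exact permutation p = 0.564, adjusted p = 0.909), and r without the same libraries was -0.06 and 0.82.

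With TNNI1, the troponin I isoform of slow skeletal muscle and the fetal heart, r was -0.02 in controls (exact permutation p = 0.971, adjusted p = 0.971, n = 6) and 0.28 in pressure overload (exact permutation p = 0.606, adjusted p = 0.848, n = 6). Its rho was -0.09 (exact permutation p = 0.919, adjusted p = 0.919) and 0.43 (exact permutation p = 0.419, adjusted p = 0.839), and r without the same libraries was 0.63 and 0.57. TNNI1 and RGS6 had the most negative fold changes of the authors' deposited table, yet control replicate 3 was the highest of all 12 libraries for TNNI1, at 58.6 CPM, and the lowest control for RGS6, at 3.17 CPM. A correlation over 6 libraries has wide error, and p-values that miss the threshold do not show that these genes vary separately.

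**Figure D4:**
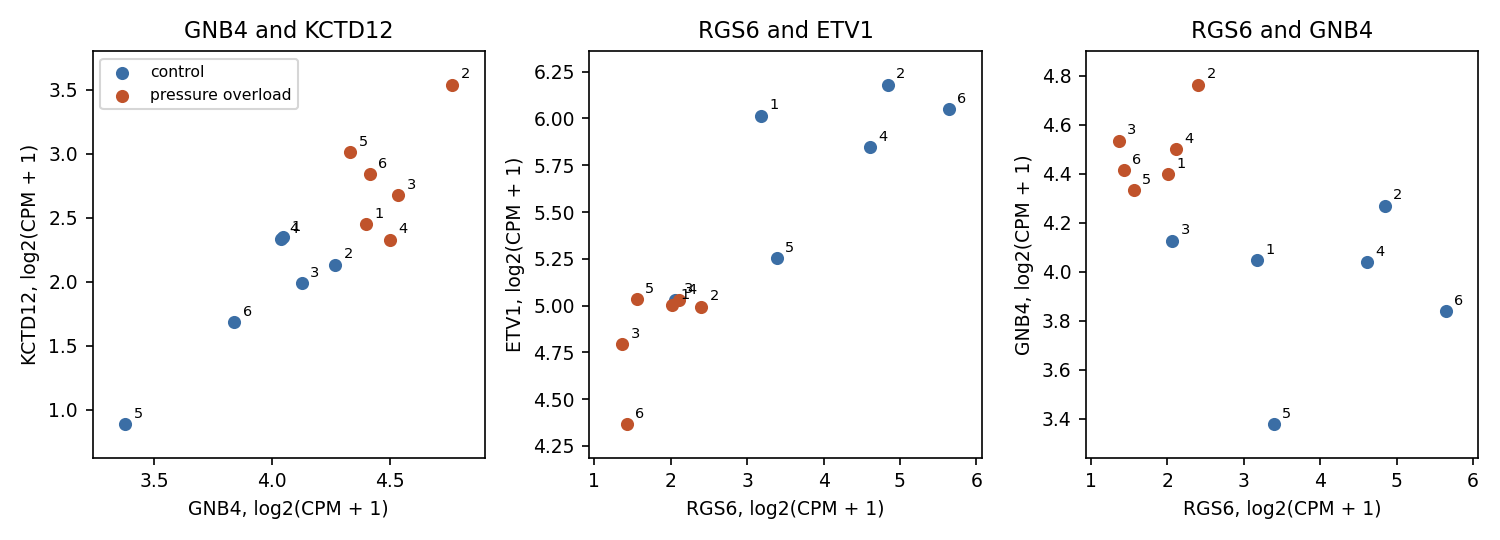
Levels of pairs of genes on the log2(CPM + 1) scale in each library, coloured by group, with replicate numbers beside the points. Control replicate 5 is the lowest library for both GNB4 and KCTD12, while RGS6 and GNB4 had an r of 0.03 in controls.

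The genes of the table most like each of the 3 were found by the correlation of deviations from the group mean over the 12 libraries, among 511 other genes, as a description. These short lists were not stable, since ranking by Spearman's rho kept 0 of the 3 genes for each of RGS6, GNB4 and KCTD12. Leaving out control replicate 5 kept 0 of the 3 for GNB4 and for KCTD12. The genes most like RGS6 were HMGCLL1, an enzyme related to HMG-CoA lyase, with an r of 0.83, the homeobox factor CUX2 with 0.75 and ETV1 with 0.73. Within controls these r values were 0.92, 0.79 and 0.77, and within pressure overload 0.15, 0.32 and 0.60. GNB4 ranked 169 and KCTD12 ranked 182 in likeness to RGS6, while KCTD10 ranked 510 of 511, with an r of -0.75.

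The genes most like GNB4 were CLTC, the clathrin heavy chain, with an r of 0.89, F2R, the thrombin receptor PAR1, with 0.84, and SMARCA5, the ATPase of ISWI chromatin remodelling complexes, with 0.82. Within controls these were 0.99, 0.98 and 0.95, and within pressure overload 0.27, 0.40 and -0.06. KCTD12 ranked 7 of 511 with an r of 0.79. The genes most like KCTD12 were DISC1, a scaffold protein, with 0.80, GNB4 with 0.79 and CLTC with 0.73. Within controls these were 0.96, 0.90 and 0.92, and within pressure overload 0.43, 0.56 and 0.22. Control replicate 5 was the lowest of the 12 libraries for CLTC, F2R, SMARCA5 and DISC1, as it was for GNB4 and KCTD12. Without that library the r of GNB4 and KCTD12 deviations was 0.52, and leaving out any other library gave 0.74 to 0.85, with 0.81 for control replicate 2. The endothelial marker KDR ranked 53 in likeness to GNB4, with an r of 0.42, and 107 in likeness to KCTD12, with an r of 0.21. PLVAP, the other listed endothelial marker, ranked 233 and 304, with r of -0.12 and -0.20. These r values joined unlike groups. For GNB4 with PLVAP, r was -0.78 within controls and 0.91 within pressure overload, and with KDR 0.33 and 0.69. For KCTD12 with PLVAP, r was -0.71 within controls and 0.29 within pressure overload, and with KDR 0.13 and 0.34. These within-group values were not tested. MYL4 ranked 27 in likeness to RGS6, with an r of 0.55.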

How the data were processed

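Per the submitters' processing notes, reads were processed with FastQC, Trim Galore 0.4.5, STAR 2.7.2b, SAMtools 1.5 and featureCounts of Subread 1.5.3 on Sscrofa11.1. The sources used here do not give the annotation, the strand setting or how reads with several alignments were counted. The deposited table holds CPM per library and per group, per the file headers, made by the authors. Whether they rescaled libraries first is not given. It also holds the authors' log2 fold change and mean log2 CPM, a likelihood-ratio score deposited by the authors, and the authors' unadjusted and adjusted p-values. That mean log2 CPM was 4.94 for SCN3B and 5.56 for MYL4. The highest log2(CPM + 1) among the 12 libraries was 4.44 for SCN3B and 5.36 for MYL4. Whether other libraries entered the authors' fit is not given. The number of genes tested, 15235, is the ratio of adjusted to unadjusted p for the first gene, and adjusted values recomputed from it matched those of the 103 genes under 1 (largest gap 7.42e-14).

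Library size was taken as the smallest at which at least 90% of the 150 lowest CPM values were whole reads. At these sizes a mean of 95.7% of the values below 5000 reads lay within 0.02 of a whole read, and 82.3% of the whole counts were even. Whether both ends of a read pair were counted is not given, so read numbers may exceed fragments and no counting interval is given. Since not all values were whole, no count model was fitted. Simulated libraries were checked to return their sizes.

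Values were analysed as log2(CPM + 1) with Python 3.11.15 and NumPy 2.4.6. The members and lists were chosen with earlier results of these data known, so pressure overload was compared with control by description only. Named genes were the 3 members, listed members of the pathway lists, 4 comparison genes and the 3 genes most like each member. Correlations within groups were tested by exact permutation. Alternatives were the pseudocount, medians, rescaling, leaving out libraries, the numbered sets of libraries, rank correlation, linear CPM and no filter. Replicate numbers follow the order of the samples, and nothing states that they pair them. RefSeq coordinates share the assembly named in the notes. No sequence is printed.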

Additional observations from a re-analysis of the deposited data

Results flagged for a closer look

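None of the 3 genes had a library that stood out from its group by the gap to its nearest neighbour. Among the 18 genes named here, in 36 groups of 6 libraries, 3 libraries did, where chance gives about 1 in 20. Control replicate 6 was the highest control for ADCY6, at 980 CPM. Pressure overload replicate 4 was the highest of its group for SCN3B, at 9.14 CPM, and for SMARCA5, at 107 CPM. The same library was the lowest of its group for 37.9% of the 512 genes.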

How the results depend on the processing

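The differences of RGS6, GNB4 and KCTD12 kept their direction under every alternative run. Leaving out 1 library at a time gave log2 differences of -2.52 to -1.80 for RGS6, 0.43 to 0.60 for GNB4 and 0.71 to 1.01 for KCTD12. With pseudocounts of 0.1 and 0.5 they were -2.46 and -2.30 for RGS6, 0.57 and 0.56 for GNB4, and 1.15 and 1.03 for KCTD12. Median-of-ratios rescaling, computed on a table of mostly lower genes, raised the median difference by 0.32 by construction and upper-quartile rescaling by 0.21. RGS6 was then at -1.87 and -1.96, KCTD12 at 1.15 and 1.07, and GNB4 at 0.85 and 0.74. For KCTD12 and GNB4 these lay above every value with 1 library left out, and for RGS6 within that range. KCTD7, KCTD10 and ADCY6 kept their direction under both rescalings, with -0.34, 0.54 and -0.39 after upper-quartile rescaling.

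No correlation within a group passed under any alternative, and 6 of the 14 changed sign under at least 1. Leaving out the 2 farthest libraries kept only 4, too few for a single pair to pass after adjustment, so nothing is read from that miss. In controls RGS6 gave a rho of -0.20 with GNB4 and with KCTD12, and -0.0559 with KCTD12 on linear CPM. With TNNI1 it gave 0.0573 on linear CPM, 0.0280 after median-of-ratios rescaling and 0.63 without the 2 farthest libraries, which also gave -0.0577 with SCN3B in controls and, in pressure overload, -0.93 with KCTD12 and -0.15 for GNB4 with KCTD12. The cause was not tested. By Spearman's rho, 0 of the 3 genes most like RGS6, 0 of those most like GNB4 and 0 of those most like KCTD12 were retained. Without control replicate 5, 0 were retained for GNB4 and 0 for KCTD12. That alternative, and leaving out control replicate 5 together with pressure overload replicate 3, were chosen after seeing the data. No paired analysis was made, because nothing states that the replicate numbers pair the samples and no test was made between groups. Low read counts limit KCTD12 in controls and RGS6 in pressure overload.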

Other observations

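Further receptors that couple to G proteins, or are built like those that do, were in the table but in none of the lists. They were picked after their values were seen, and none passed an adjusted p of 0.05 in the authors' deposited table. Of the 8, 4 were higher and 4 lower in pressure overload. The table listed 141 genes as higher and 375 as lower, or 0.926% and 2.46% of all tested genes. No share of all receptors is given, so nothing is read from the count of 8. After median-of-ratios rescaling, which shifts most genes upwards, the log2 difference was -0.10 for TBXA2R in place of -0.41 and -0.09 for GPR160 in place of -0.40. CX3CR1, the fractalkine receptor of monocytes and macrophages, averaged 6.96 ± 2.89 CPM over the controls and 12.1 ± 3.17 CPM under pressure overload. F2R was at 19.3 ± 6.61 and 28.7 ± 6.93 CPM, the orphan receptor GPR153 at 5.02 ± 2.37 and 8.59 ± 1.95 CPM, and the adhesion receptor ADGRE5 at 62.5 ± 10.4 and 79.01 ± 9.33 CPM (SD, n = 6 each). GALR1, a galanin receptor, averaged 8.45 ± 4.05 CPM over the controls and 5.26 ± 1.52 CPM under pressure overload. TBXA2R, the thromboxane receptor, was at 21.2 ± 5.80 and 15.6 ± 4.27 CPM, GPR160 at 22.8 ± 3.83 and 17.1 ± 3.37 CPM, and the cadherin receptor CELSR1 at 31.6 ± 7.05 and 20.6 ± 5.68 CPM (SD, n = 6 each). The libraries of the groups overlapped for all 8.

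The recovered read counts of the 3 genes differed in kind. All 12 counts of GNB4 and all 12 of KCTD12 were even, while 7 of the 12 counts of RGS6 were odd. Of 431 genes whose counts were whole within 0.02 reads in the 12 libraries, 223, or 51.7%, were even in each, and 53, or 12.3%, were odd in at least 7.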
